A study of Rattus norvegicus with 10 samples.

Results

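The genes described here are genes of the Wnt pathway, with Fjx1 counted beside them. Those of the pathway are the ligand gene Wnt10a, the feedback targets Axin2, Nkd1, Rnf43 and Znrf3, and the transducers Ctnnb1, Lef1 and Tcf7l2. All were chosen by name, with earlier results of these data known, and looked up by gene name in the deposited tables. Of the 9 genes, 8 had a level in all 10 libraries, out of 13391 genes of the series that did; Znrf3 was not analysed here. The cells were RPE-J, a Long-Evans rat retinal pigment epithelium line transformed with SV40 and grown at 33 °C, and polyadenylated RNA was sequenced after the cells had been lifted with trypsin. Every group was this same line, and the labels separate the groups only by what was added and for how long. The compound PNU-282987, called PNU here, activates the α7 type of nicotinic acetylcholine receptor. It was given at 100 nM, and RNA was taken after 30 min, 1 h, 3 h, 8 h and 12 h. Nicotine at 1 µM, the receptor activation control, and methyllycaconitine (MLA) at 100 nM, an antagonist used as the negative control, were each given for 1 h or 12 h. The vehicle DMSO was sampled only at 12 h. There was 1 library per condition, so no difference between 2 libraries has a replicate check, and vehicle values for the shorter times were not analysed here.

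Wnt proteins bind Frizzled and LRP receptors at the cell surface and stop a cytoplasmic complex, built on Axin, from marking β-catenin for destruction. β-catenin then enters the nucleus and joins the DNA-binding proteins LEF1 and TCF7L2 to switch on targets, several of which feed back to restrain the pathway. In the vertebrate eye this pathway is known for its role in specifying and maintaining the pigment epithelium during development. AXIN2 rebuilds the destruction complex, NKD1 binds Dishevelled, and the ubiquitin ligases RNF43 and ZNRF3 clear Frizzled from the surface. Fjx1 encodes a counterpart of the Drosophila Golgi kinase four-jointed, which in the fly acts on the cadherins Fat and Dachsous.

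Promoter sequences are shown for the ligand and for the only 2 members whose window held the core of the LEF/TCF recognition motif. The motif was searched as CTTTGAA and CTTTGAT, which differ at their last base and cannot overlap each other on the same strand. Both strands were searched in a window of 300 bases per gene (250 before and 50 after the annotated start) from RefSeq on the rat build GRCr8. A window was found for all 8 measured members. Axin2 held 2 matches on the strand of the gene, CTTTGAA at position -232 and CTTTGAT at position -132 from the start, and Nkd1 held 1, CTTTGAT at position -141. The other 6 windows, of Wnt10a, Ctnnb1, Lef1, Tcf7l2, Rnf43 and Fjx1, held none. Of all 33365 distinct windows of that length, 8.73% held at least 1 match. The 250 bases before the start are printed 5′ to 3′ on the strand of the gene, with matches in capitals: Axin2 from chr10:94398535-94398784 (plus strand), Nkd1 from chr19:34722847-34723096 (minus strand) and Wnt10a from chr9:83798344-83798593 (plus strand).
Axin2: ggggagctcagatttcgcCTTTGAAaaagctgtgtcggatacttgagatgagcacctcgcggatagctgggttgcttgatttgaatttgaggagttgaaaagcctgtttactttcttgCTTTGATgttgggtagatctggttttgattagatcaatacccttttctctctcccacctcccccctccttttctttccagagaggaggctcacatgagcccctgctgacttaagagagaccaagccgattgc
Nkd1: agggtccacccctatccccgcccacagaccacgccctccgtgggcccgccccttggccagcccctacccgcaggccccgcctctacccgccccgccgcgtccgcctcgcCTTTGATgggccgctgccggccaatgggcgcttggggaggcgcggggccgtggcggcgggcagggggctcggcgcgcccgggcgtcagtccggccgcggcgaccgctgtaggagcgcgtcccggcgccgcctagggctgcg
Wnt10a: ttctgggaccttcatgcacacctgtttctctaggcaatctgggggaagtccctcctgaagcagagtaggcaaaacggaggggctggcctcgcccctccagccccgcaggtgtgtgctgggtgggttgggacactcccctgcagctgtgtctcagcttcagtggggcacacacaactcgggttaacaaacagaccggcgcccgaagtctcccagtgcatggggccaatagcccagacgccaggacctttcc
A match describes the letters only and says nothing on whether a factor binds there in these cells.

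Reads in the listed genes numbered between 15220638 (PNU 8 h) and 31510333 (MLA 12 h). A level below is the number of reads divided by a size factor set over all 10 libraries, so it compares 1 gene across libraries and not different genes, whose lengths differ. Intervals are 95% intervals of the read number (Poisson for levels, Clopper-Pearson for folds), and they cover counting error only. Levels in bulk RNA cannot tell fewer expressing cells from less RNA per cell. Nicotine 1 h stood apart from most of the others: the median number of genes at least 2-fold different from another library was 152 for it and between 20 and 52 for the other 9. It was near PNU 3 h and PNU 12 h, with 13 and 15 genes past 2-fold. Of 15 pigment epithelium markers 6 had a level, with summed levels of 9481 to 11824. These were Rlbp1, Best1, Mitf, Pmel, Mertk and Krt8, while Rpe65, Otx2, Tyr, Tyrp1, Dct, Rgr, Lrat, Ttr and Krt18 had no level here. Of 8 fibroblast or mesenchyme markers 4 had a level (Vim, Col1a1, Col3a1 and Acta2), so the label of pigment epithelium rests on few of its defining markers in these tables.

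Wnt10a, the ligand, had the widest range of the members, 2.85-fold between its lowest and highest library. Its level was 34.5 in DMSO 12 h, 53.5, 58.4, 53.4, 54.7 and 43.8 along the PNU series from 30 min to 12 h, 80.8 and 62.4 in nicotine at 1 h and 12 h, and 28.3 and 76.6 in MLA at 1 h and 12 h. The high libraries were nicotine 1 h and MLA 12 h, the low ones MLA 1 h and DMSO 12 h, and the 5 PNU libraries lay between them. These levels rest on 27 to 104 reads: the interval for MLA 1 h ran from 18.7 to 41.2 and that for MLA 12 h from 62.6 to 92.9, so these did not overlap. No 2 neighbours in the order of the 10 levels had intervals apart, while 8 of all 45 pairs of libraries did.

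Axin2, a widely used readout of β-catenin activity, was highest in nicotine 1 h and PNU 3 h. Its level was 58.2 in DMSO 12 h, 77.7, 75.0, 110.2, 82.0 and 73.7 along the PNU series, 119 and 53.1 in nicotine at 1 h and 12 h, and 74.4 and 84.0 in MLA at 1 h and 12 h. The lowest libraries were nicotine 12 h and DMSO 12 h. PNU 3 h and DMSO 12 h did not overlap in their intervals (89.2 to 135 and 43.7 to 75.9), and neither did nicotine 1 h (99.4 to 141) and nicotine 12 h (40.2 to 68.8).

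Lef1, which encodes a DNA-binding partner of β-catenin, followed Axin2 in its high libraries but not in its low ones. Its level was 126 in DMSO 12 h, 112, 111, 172, 170 and 157 along the PNU series, 196 and 130 in nicotine at 1 h and 12 h, and 102 and 161 in MLA at 1 h and 12 h. MLA 1 h, PNU 1 h and PNU 30 min were lowest, and nicotine 1 h was highest. Within PNU the 30 min and 1 h intervals (92.1 to 136 and 92.2 to 133) lay below that of 3 h (145 to 202).

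Tcf7l2, the other DNA-binding partner, was highest in PNU 3 h. Its level was 498 in DMSO 12 h, 460, 460, 615, 454 and 468 along the PNU series, 531 and 401 in nicotine at 1 h and 12 h, and 416 and 428 in MLA at 1 h and 12 h. The intervals of its 2 highest libraries, PNU 3 h (564 to 670) and nicotine 1 h (489 to 576), overlapped, and 12 of 45 pairs were apart.

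Nkd1, the Dishevelled-binding inhibitor, separated early from late PNU libraries. Its level was 238 in DMSO 12 h, 203, 208, 281, 302 and 292 along the PNU series, 286 and 231 in nicotine at 1 h and 12 h, and 278 and 289 in MLA at 1 h and 12 h. The 30 min and 1 h PNU levels were the lowest of all 10, with intervals (175 to 233 and 182 to 238) below those of the 3 later PNU libraries.

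Rnf43, the ubiquitin ligase, ranged from 72.9 in PNU 8 h to 90.5 in DMSO 12 h, and 0 of 45 pairs had intervals apart. Its coefficient of variation over the 10 libraries was 9.21%, against 11.1% from counting alone, so no difference in Rnf43 was detectable at this depth. Ctnnb1, the β-catenin gene, was measured most precisely, with 8028 to 15924 reads per library. It ranged from 9975 in nicotine 1 h and 10452 in PNU 12 h to 12314 in MLA 1 h, a 1.23-fold range, and 32 of 45 pairs had intervals apart. Its lowest library was the one in which Wnt10a, Axin2, Lef1 and Fjx1 were highest. Of the 11188 genes with a mean level of at least 50, 17.1% were highest and 23.4% lowest in nicotine 1 h. The Ctnnb1 intervals leave out the spread between libraries and the choice of scaling, which moved member log2 folds by up to 0.044.

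Fjx1 was set apart by a single library. Its level was 179 in nicotine 1 h, with an interval of 155 to 206, and between 71.7 (nicotine 12 h) and 122 (PNU 8 h) in the other 9. Nicotine 1 h and the next highest library did not overlap, and the range was 2.49-fold with nicotine 1 h and 1.70-fold without it.

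**Figure D1:**
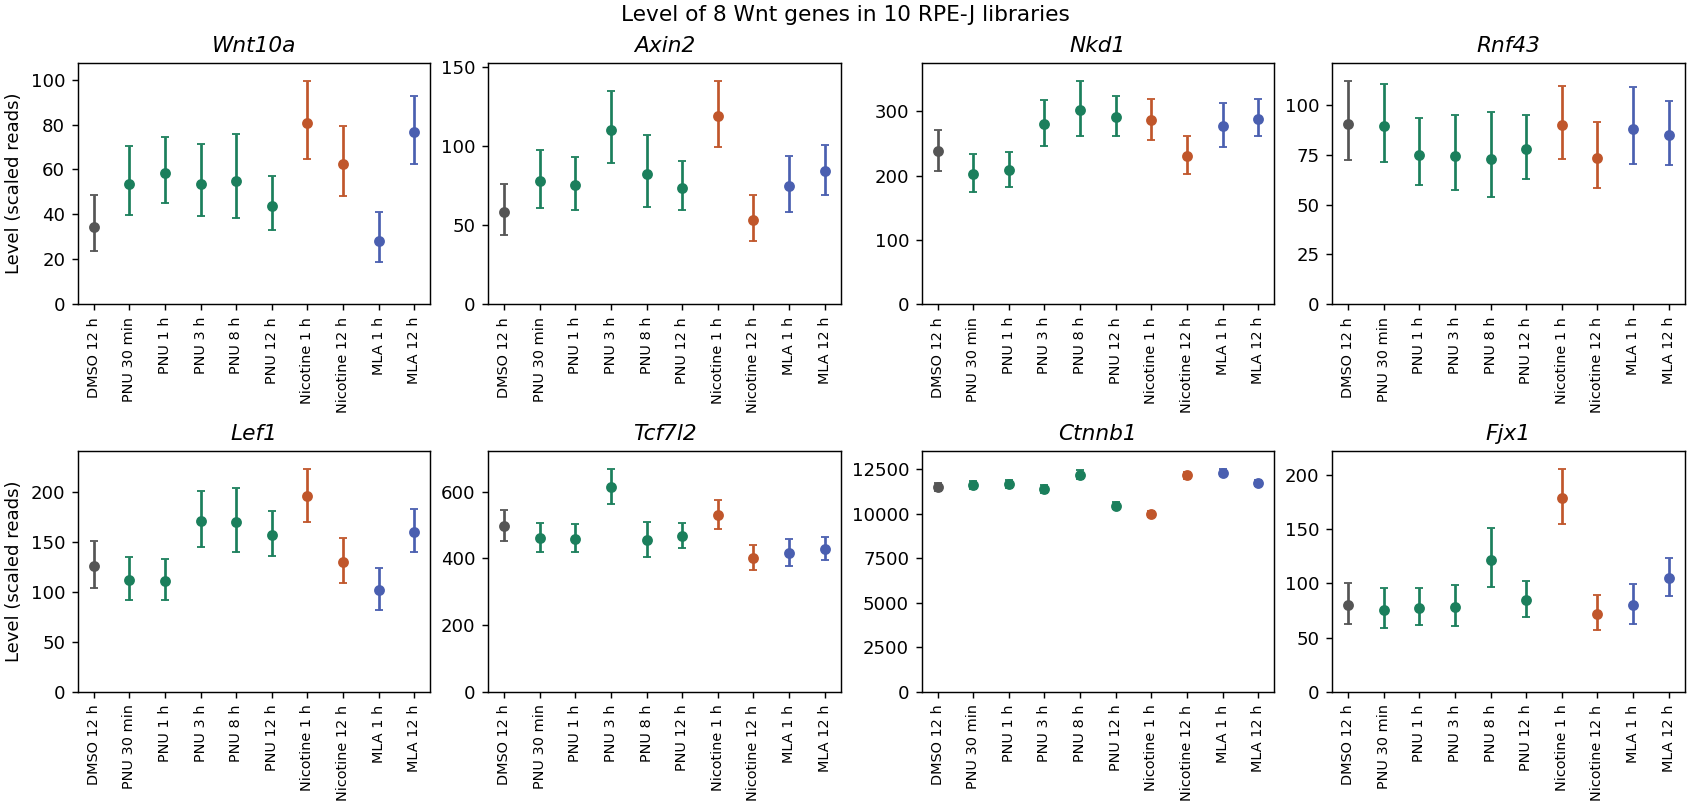
Level (reads divided by the size factor over all libraries, vertical axis from 0) of the 8 measured genes in each of the 10 libraries (horizontal axis); points are single libraries and bars are 95% Poisson intervals. Nicotine 1 h is the highest library for Wnt10a (80.8), Axin2 (119), Lef1 (196) and Fjx1 (179) and the lowest for Ctnnb1 (9975). Of all genes with a mean level of at least 50, 17.1% are highest and 23.4% lowest in it.

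Of the 8 measured members 3, Wnt10a, Axin2 and Fjx1, had a range of at least 2-fold between the highest and the lowest of the 10 libraries. The same held for 5.97% of the 11188 genes with a mean level of at least 50. Because the members were chosen with earlier results of these data known, the 2 shares cannot be compared as a test. A highest-to-lowest range is picked from 45 pairs and grows with counting error, which is large for members with few reads. Without nicotine 1 h, 2 members (Wnt10a and Axin2) kept such a range beside 3.44% of all genes, and without both nicotine 1 h and PNU 3 h only Wnt10a did, at 2.71-fold, beside 2.03% of all genes. The Axin2 range without both libraries was 1.58-fold.

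The members were then compared between pairs of libraries. A gene was counted when its levels differed by at least 2-fold, or by at least 1.5-fold, and averaged at least 50 over the pair. In these comparisons levels were those of the deposited table of the pair, or those scaled over all libraries where no table holds the pair (nicotine and MLA, 12 h against 1 h).

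In PNU at 12 h, the agonist against its time-matched vehicle, 0 of the 7 members that reached the level passed either fold, beside 2.90% of 11262 genes at 1.5-fold and 0.604% at 2-fold. The largest of the member folds was that of Wnt10a, which did not reach the mean level of 50, at 46.7 in PNU and 37.0 in DMSO on the scale of this table, a log2 fold of 0.33 (95% interval -0.32 to 1.01). Axin2 had a log2 fold of 0.33 (-0.17 to 0.85), and Lef1 of 0.31 (-0.03 to 0.65). Intervals that left out 0 belonged to Nkd1, at 0.28 (0.04 to 0.53), and to Ctnnb1, at -0.15 (-0.19 to -0.11). A change of Axin2 within its interval was not detectable at this depth.

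Nicotine at 12 h against DMSO also placed 0 of 7 members past either fold, beside 0.457% of 11149 genes at 2-fold and 2.41% at 1.5-fold. Wnt10a did not reach the mean level of 50 in this pair; it was at 62.2 in nicotine and 34.5 in DMSO, a log2 fold of 0.85 (0.22 to 1.51), and was the only member past 1.5-fold when the level filter was lowered to 10. Tcf7l2 was lower in nicotine, with a log2 fold of -0.31 (-0.51 to -0.12). Ctnnb1 was higher by 0.07 (0.04 to 0.11).

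MLA at 12 h, the negative control, placed 1 of 8 members past 2-fold and the same 1 past 1.5-fold, beside 0.387% and 2.28% of 11356 genes. This was Wnt10a, at 86.0 in MLA and 38.7 in DMSO on the scale of this table, a log2 fold of 1.15 (0.57 to 1.77). Of all genes 0.0881% were higher by 2-fold and 1.26% by 1.5-fold. Axin2 had a log2 fold of 0.53 (0.05 to 1.02), Lef1 of 0.35 (0.02 to 0.69) and Nkd1 of 0.28 (0.04 to 0.52). Tcf7l2 went the other way, with -0.22 (-0.40 to -0.04). The 3 comparisons at 12 h share the DMSO library, in which Wnt10a and Axin2 were at their next-to-lowest level of the 10. With PNU 30 min as the reference in place of DMSO, 0 members passed either fold in MLA 12 h.

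Between 1 h and 12 h the members went in different directions in the 3 compounds. In PNU, 0 of 8 passed either fold, beside 0.264% and 2.06% of 11364 genes. Lef1 went from 129 to 181 on the scale of this table, a log2 fold of 0.49 (0.16 to 0.83), and Nkd1 from 241 to 336, a log2 fold of 0.48 (0.23 to 0.72). Both intervals left out 0 while both folds stayed under 1.5. Axin2 had a log2 fold of -0.03 (-0.48 to 0.42).

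In nicotine, 2 of 8 members passed 2-fold and 3 passed 1.5-fold, all lower at 12 h. Of 11204 genes 0.428% were lower by 2-fold and 5.23% by 1.5-fold, and 2.62% and 14.7% passed in either direction, most of them higher. Fjx1 went from 179 to 71.7, a log2 fold of -1.32 (-1.72 to -0.93), and Axin2 from 119 to 53.1, a log2 fold of -1.16 (-1.64 to -0.70). Lef1 went from 196 to 130, a log2 fold of -0.59 (-0.91 to -0.28). Of the 8 members 7 were lower at 12 h, and the median log2 fold of the 8 was -0.39 against -0.0051 for all genes at the level. Ctnnb1 was the exception, with a log2 fold of 0.28 (0.25 to 0.32). Of the 11204 genes, 5533 were higher at 12 h. Among the lower members, the intervals of Wnt10a (-0.85 to 0.10) and Rnf43 (-0.73 to 0.15) held 0. The 1 h library of this pair is the library that stood apart from most of the others, so these folds are also differences between that library and those.

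In MLA, 1 of 8 members passed 2-fold and 2 passed 1.5-fold, all higher at 12 h. Of 11190 genes 0.0357% were higher by 2-fold and 0.643% by 1.5-fold, and 0.152% and 1.35% passed in either direction. Wnt10a went from 28.3 to 76.6, a log2 fold of 1.44 (0.82 to 2.11), and Lef1 from 102 to 161, a log2 fold of 0.66 (0.31 to 1.02). Axin2, the feedback target, had a log2 fold of 0.17 (-0.27 to 0.62) in the same pair. The feedback genes Nkd1, with a log2 fold of 0.06 (-0.17 to 0.29), and Rnf43, with -0.06 (-0.47 to 0.37), also had intervals that held 0. Such intervals do not show that these 3 feedback genes were unchanged, since that of Axin2 reached 0.62. Whether they differed from the ligand was not tested.

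**Figure D2:**
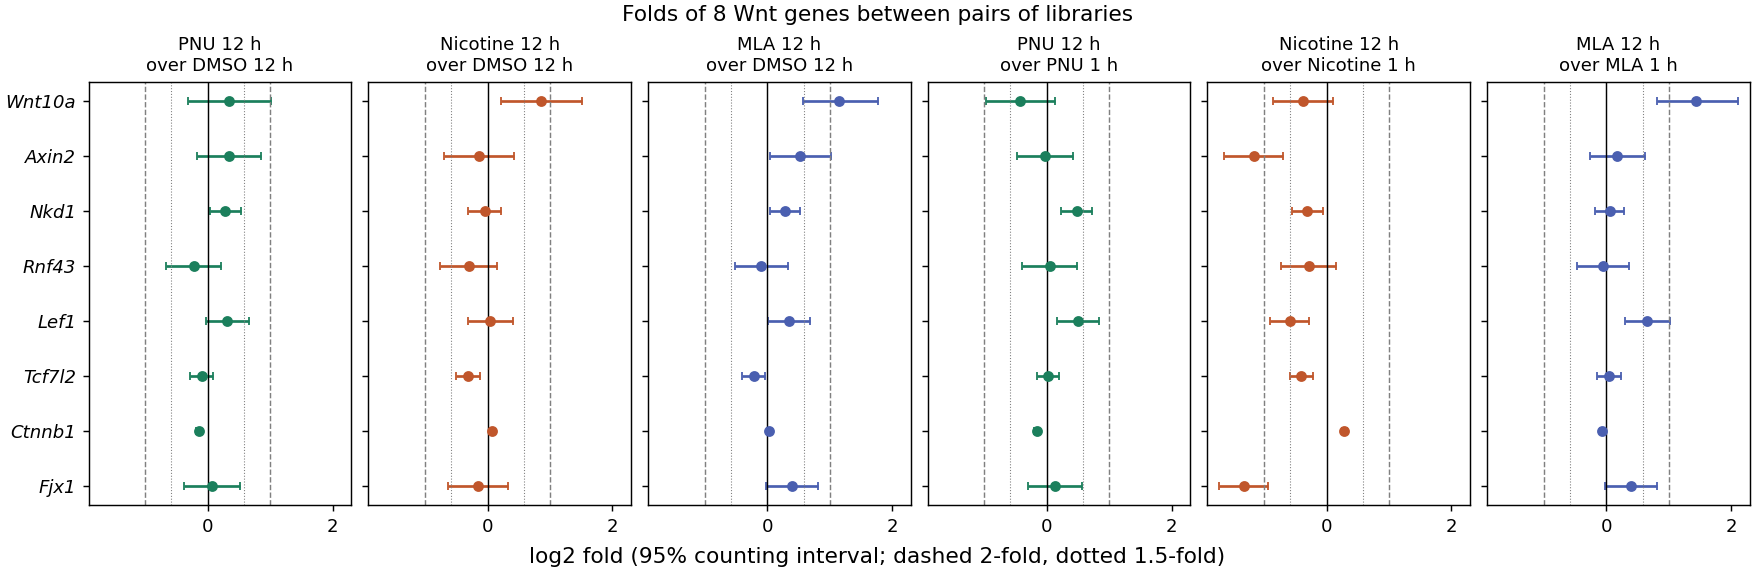
Log2 fold (horizontal axis) of the 8 genes in the 6 pairs of libraries, named library over reference, with 95% Clopper-Pearson intervals; dashed lines mark 2-fold and dotted lines 1.5-fold. Wnt10a lies past 2-fold in both MLA panels (1.15 and 1.44), and Axin2 (-1.16) and Fjx1 (-1.32) in the nicotine 12 h over 1 h panel.

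With compound and time crossed, 6 libraries allowed a test in which the disagreement between compounds serves as the spread. limma on log2(level + 1) was fitted across all genes, with p-values adjusted over all of them by the Benjamini-Hochberg method. For 12 h against 1 h over the 3 compounds it called 0 of 8 members and 0% of 13325 genes, 102 of which had an unadjusted p under 0.05. None of the members was among those. The lowest limma adjusted p of any gene was 0.99997, so the fit could call little, and its 0 calls do not show that members were unchanged. The smallest p among members was that of Axin2, with a log2 difference of -0.33 (SE 0.28, limma adjusted p = 1.00), lower at 12 h in 2 of 3 compounds. Without the nicotine pair, the fit over PNU and MLA alone called 454 genes, 3.41% of 13310, and 1 member: Lef1, higher at 12 h in both compounds, with a log2 difference of 0.58 (SE 0.17, limma adjusted p = 0.0249). That fit has 1 residual degree of freedom per gene and takes its spread from all genes together. In the nicotine pair, which it leaves out, Lef1 was lower at 12 h. In the same fit Axin2 had a log2 difference of 0.07 (SE 0.20).

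For the agonists PNU and nicotine against MLA at matched times, the same fit called 0 of 8 members and 0% of 13325 genes, with 69 genes and 0 members at an unadjusted p under 0.05. Wnt10a had the largest log2 difference, 0.35 (SE 0.40, limma adjusted p = 1.00), agonists over MLA. Its level was above MLA in both agonists at 1 h and below it in both at 12 h. For Axin2 the log2 difference was -0.04 (SE 0.30). With SEs of this size a 1.5-fold difference of Wnt10a or Axin2 was not detectable. With PNU as the only agonist the fit called 3.98% of 13310 genes and 0 members. That fit also has 1 residual degree of freedom per gene and takes its spread from all genes together.

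Along the PNU series, a line over log2 of time through 5 libraries called 3 of 13307 genes (0.0225%), all lower with time, and 0 of 8 members. At an unadjusted p under 0.05 there were 519 genes and 2 members. Nkd1 was higher by 0.14 on the log2 scale per doubling of time (SE 0.04, limma adjusted p = 0.907), and Lef1 by 0.14 (SE 0.05, limma adjusted p = 0.999). Neither passed the adjustment. For Axin2 the slope was 0.01 (SE 0.06) and for Wnt10a -0.05 (SE 0.06). Axin2 was highest at 3 h, which a line in time does not capture.

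**Figure D3:**
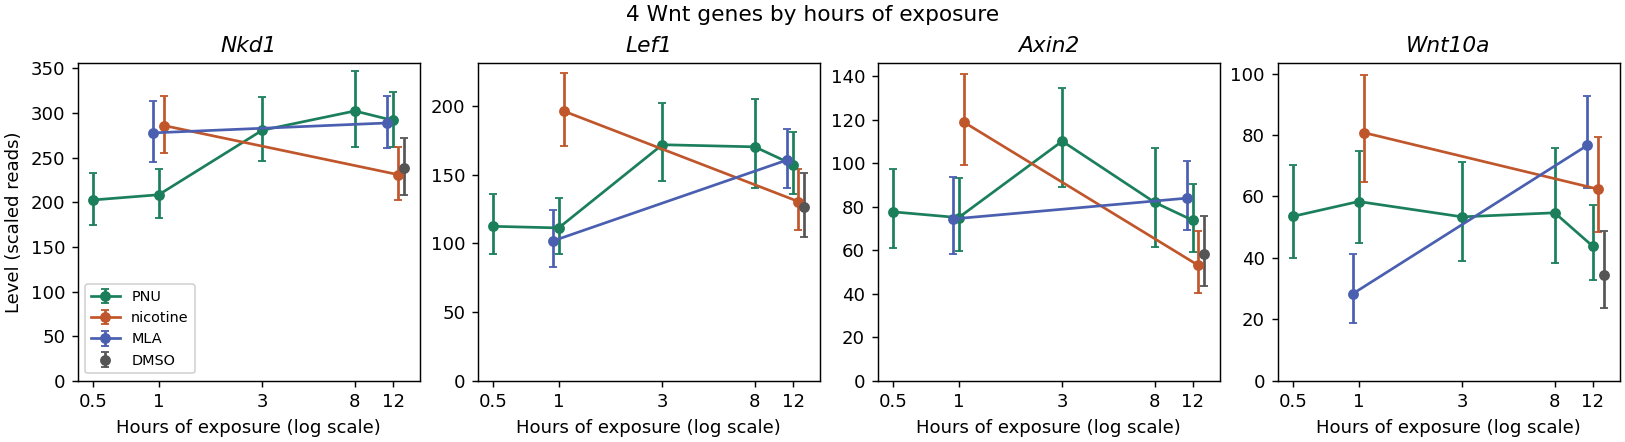
Level (vertical axis from 0) against hours of exposure (log scale) for 4 genes, with PNU, nicotine, MLA and DMSO in separate colours, 95% Poisson bars, and points at the same hour set slightly apart. Nkd1 goes from 203 and 208 in the first hour of PNU to 281, 302 and 292 later, while in nicotine it goes from 286 to 231.

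The authors' deposited tables give a p-value for each pair, without a replicate. Over the 39 deposited tables no member had an adjusted p-value under 0.05, and the lowest adjusted value of any gene was 0.9997. In the authors' deposited tables Fjx1 had an unadjusted p-value under 0.05 in 2 of the 39, with 0.0284 (nicotine 1 h against PNU 12 h) the lowest of any member. The other 7 members had none, and the lowest value among them in the authors' deposited tables was 0.0934, for Wnt10a.

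Members shared their high libraries to different degrees. Lef1 and Fjx1 (Pearson r 0.72), Lef1 and Nkd1 (0.70) and Axin2 and Tcf7l2 (0.67) were the most alike in log2 level over the 10 libraries. Without nicotine 1 h and PNU 3 h these values were 0.77, 0.68 and 0.09 over 8 libraries, so the likeness of Axin2 and Tcf7l2 rests on those 2 libraries. The Wnt10a and Axin2 pair, the ligand and the target, had an r of 0.43, and 0.21 without both. All these values describe points that share library preparation and size factor, and carry no test.

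The genes closest to Axin2 in pattern, among 11188 genes with a mean level of at least 50, were Ell (r 0.97), Tle3 (0.96), Cabin1 (0.96), Furin (0.96) and Sap130 (0.96). Tle3, a Groucho-type corepressor that binds LEF/TCF proteins, is on the wider Wnt list. Its level was 668 in DMSO 12 h, 706, 712, 1033, 798 and 716 along the PNU series, 1025 and 572 in nicotine at 1 h and 12 h, and 753 and 755 in MLA. As for Axin2, PNU 3 h and nicotine 1 h were high and nicotine 12 h was lowest. Over the other 8 libraries the 5 values of r were between 0.90 and 0.93. These 5 genes were picked for the highest r over all libraries, which include those 8. Neither the r over 8 libraries nor the Tle3 levels are therefore a separate check of the likeness. The closest to Wnt10a, picked in the same way, were Igsf9 (0.90), Itga6 (0.89), Irf5 (0.89), Susd4 (0.88) and Gramd4 (0.88).

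Summed over the list, fibroblast or mesenchyme markers were high in the same 2 libraries as Axin2, Lef1, Tcf7l2 and Tle3. Such a sum is weighted towards the markers with most reads. The summed level of the 4 measured fibroblast or mesenchyme markers (4 of 8 named; Col1a2, Thy1, Pdgfra and Pdgfrb had no level here) was 123065 in nicotine 1 h and 117496 in PNU 3 h, and 80410 to 99032 in the other 8. Col1a1, which encodes a chain of type I collagen, was at 45305 and 48344 in these 2 libraries and at 21518 to 32175 in the others. It was picked from the 4 after its values were seen and makes up a large part of the sum. The levels of Vim, Col3a1 and Acta2 are not given here, so the sum does not show that each marker was high there. The summed level of the 6 measured pigment epithelium markers was also highest there, 11693 and 11824 against 9481 to 10691. The other 5 marker lists did not all share this pattern. The glial sum was highest in PNU 3 h (2014) and next in DMSO 12 h (1759), the neuron sum in nicotine 1 h (356) and PNU 12 h (346), and the photoreceptor sum in nicotine 1 h (84.4) and MLA 12 h (81.8). The endothelial sum was highest in PNU 8 h (95.7) and the immune sum in PNU 12 h (259). The part of cell composition or library quality in the member levels was not tested.

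Around the members, a wider list of 98 Wnt genes had 67 with a level in all libraries: 8 of 18 other ligands, 2 of 2 secretion factors, 14 of 16 receptors, 3 of 7 R-spondin genes, 7 of 17 secreted or membrane inhibitors, 16 of 18 cytoplasmic components, 10 of 10 nuclear factors and 7 of 10 targets. The 3 limma fits called 0 of these 67, and the crossed fits called 0 of all genes. At an unadjusted p under 0.05 there were 0 for 12 h against 1 h, 0 for agonists against MLA and 2 for the PNU series: Fosl1, a slope of 0.14 (SE 0.03, limma adjusted p = 0.638), and Fzd2, a slope of -0.08 (SE 0.03, limma adjusted p = 0.999). Without the nicotine pair the fit for time called 4, Fosl1 higher at 12 h and Amer1, Tle4 and Fzd4 lower, and the fit of PNU alone against MLA called Lrp6, Amer1, Tnks and Apc, all lower in PNU. These are 5.97% of the list in each fit, beside the 3.41% and 3.98% of all genes given above. Both fits have 1 residual degree of freedom per gene and take their spread from all genes together. Of the 58 at a mean level of at least 50, PNU 3 h was the highest library for 18 (31.0%, against 17.4% of all genes) and nicotine 12 h the lowest for 22 (37.9%, against 16.5%). Nicotine 1 h was near the share of all genes. It was the highest library for 10 (17.2%, against 17.1%) and the lowest for 12 (20.7%, against 23.4%).

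In PNU 12 h against DMSO, 0 of 58 list genes at the level were higher and 2 lower by 1.5-fold. In nicotine 12 h these were 1 and 2 of 57, and in MLA 12 h 0 and 2 of 60. In either direction this is 3.45%, 5.26% and 3.33% of the list genes, beside 2.90%, 2.41% and 2.28% of all genes at the level. The lower 2 were Dact1 and Myc in each of the 3 comparisons, which share the DMSO library. Myc, a growth regulator and known Wnt target, was at 2159 in DMSO 12 h, its highest level of the 10, and at 1427, 1214 and 1434 in PNU, nicotine and MLA at 12 h. Dact1, a Dishevelled-binding protein, was at 142 in DMSO 12 h and at 77.0, 91.3 and 88.4 in the same libraries. The median log2 fold of the list was -0.08, -0.09 and 0.08 in PNU, nicotine and MLA, against -0.0048, -0.0042 and -0.0060 for all genes at the level.

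Between 1 h and 12 h of nicotine, 4 of 57 list genes (7.02%) were higher and 8 (14.0%) lower by 1.5-fold, beside 9.46% and 5.23% of all genes at the level. The lower ones were the ligands Wnt4 (182 to 95.9) and Wnt7b (490 to 315), the receptor Ror2 (501 to 290), Rspo1 (369 to 237), the nuclear repressors Tcf7l1 (220 to 118) and Tle3 (1025 to 572), and the targets Myc (1982 to 1214) and Fosl1 (1384 to 888). The higher ones were Fzd3 (202 to 316), the R-spondin receptor gene Lgr4 (232 to 367), the tankyrase Tnks (363 to 545) and Amer1 (120 to 342). Amer1, which encodes a membrane adaptor of the destruction complex, was the only list gene past 2-fold, with a log2 fold of 1.51 (1.22 to 1.81). It was low in the libraries where Axin2 was high: 120 in nicotine 1 h and 150 in PNU 3 h, next to 185 in PNU 12 h and 263 to 363 in the other 7. The list median was -0.19 in this pair.

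In the other 2 compounds 3.45% (PNU) and 1.67% (MLA) of the list genes passed 1.5-fold between 1 h and 12 h, beside 2.06% and 1.35% of all genes at the level. For PNU these were Wnt11, higher (56.8 to 92.3 on the scale of its table), and Amer1, lower (369 to 213), of 58 list genes. For MLA it was Dact1 alone, lower (137 to 88.4), of 60. The list medians were -0.06 and 0.04.

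**Figure D4:**
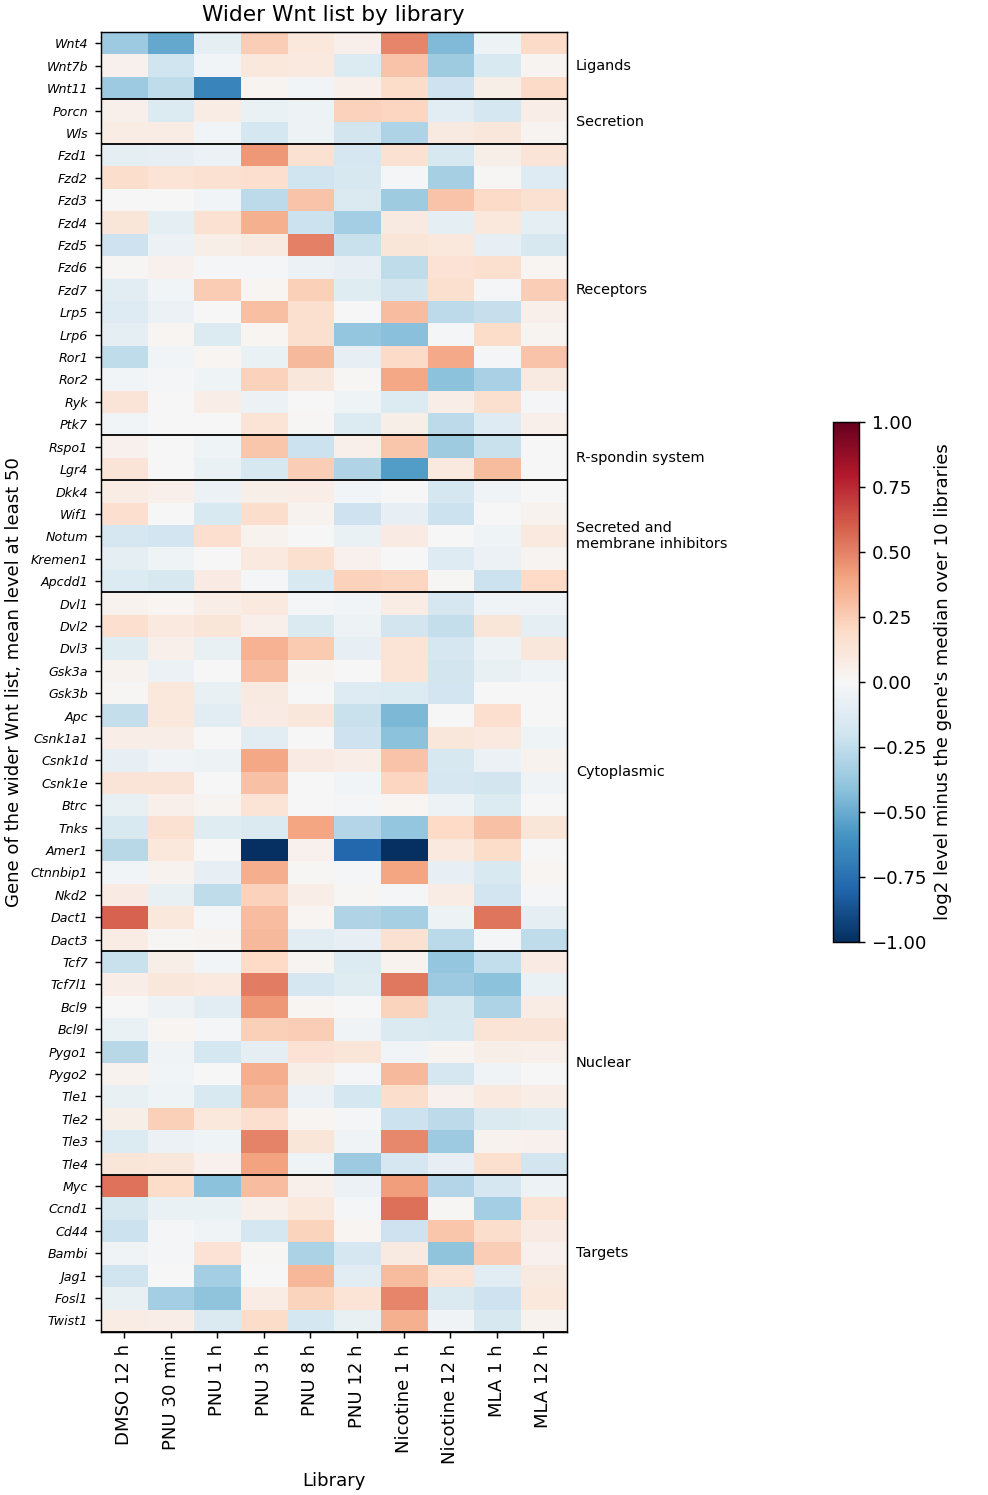
Log2 level minus the gene's median over the 10 libraries (colour, cut at -1 and 1) for the 58 genes of the wider list with a mean level of at least 50, grouped by role, in each library (columns). The nicotine 1 h and PNU 3 h columns are the most coloured, with Amer1 low in both (120 and 150) and Tle3 high in both (1025 and 1033).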

How the data were processed

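Polyadenylated RNA of 10 RPE-J libraries, 1 per condition, was analysed from 39 deposited pair tables. Per the submitters' processing notes the authors used Trimmomatic 0.36, STAR 2.5.2b, featureCounts of Subread 1.5.2 and DESeq2; build, annotation and strand setting: not given in the sources used here. Per the file headers each deposited table holds a level per library, a log2 fold change and p-values (raw and adjusted). The deposited level is a signal equal to reads divided by a size factor set anew in each deposited table. Library numbers were tied to samples by the file records, and PNU 12 h by elimination.

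Reads were recovered as multiples of the smallest step (100% within 0.01 of whole), rescaled over all libraries by the median of ratios, and used for exact Poisson and Clopper-Pearson 95% intervals. No count model was run. Tests used limma 3.58.1 (R 4.3.3) with a mean-variance trend on log2(level + 1), mean level at least 10, tested on simulated data; figures and counts used Python 3.11.15. The tables list 13015 to 13781 genes with mean levels above 8.32 to 10.5, and genes below these levels were not analysed here; Znrf3 has no row in the tables used.

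The members and lists were chosen with earlier results of these data known. Named genes are the members, list genes past a size rule, the 5 genes nearest to Wnt10a and Axin2, and up to 4 list genes per class with the widest ranges, not all of which are printed; Col1a1 and the marker sums were chosen after their values were seen. Alternatives covered scaling, level filter, pseudocount, reference library and left-out libraries.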

Additional observations from a re-analysis of the deposited data

Results flagged for a closer look

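The change from 1 h to 12 h had opposite signs in different compounds, with counting intervals that left out 0 in both, for 3 members; with 1 library per condition the difference between compounds was not tested. For Lef1 the log2 fold was -0.59 in nicotine, 0.49 in PNU and 0.66 in MLA. For Nkd1 it was -0.31 in nicotine and 0.48 in PNU, with 0.06 in MLA, where the interval (-0.17 to 0.29) held 0. For Ctnnb1 it was 0.28 in nicotine, -0.17 in PNU and -0.069 in MLA. For Lef1 and Ctnnb1 nicotine had the sign that the other 2 compounds did not. The nicotine 1 h library has the largest median number of genes past 2-fold from another library, 152. It was near PNU 3 h and PNU 12 h, with 13 and 15 such genes.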

How the results depend on the processing

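Of 98 recomputed counts of members, 92 stayed within 1.5 times the reported count, where a reported 0 that stayed 0 was also taken as unchanged. In nicotine 12 h against DMSO 12 h the count past 1.5-fold was 1 in place of 0 with a mean level of at least 10 and 1 with no filter on level (Wnt10a, below the level of 50). With PNU 30 min as the reference, MLA 12 h had 0 members past 2-fold and 0 past 1.5-fold, in place of 1 and 1. Without both nicotine 1 h and PNU 3 h, a choice made after seeing the data, 1 member had a 2-fold range in place of 3. For 12 h against 1 h, leaving out a compound gave 0 to 1 members called; for the PNU series, leaving out a library gave 0 to 0. The log2 difference of Axin2, -0.33, lay between -0.587 and 0.074 when a compound was left out, and that of Fjx1, -0.26, between -0.588 and 0.26; both were above 0 without the nicotine pair, and the cause was not tested. Over all genes, the PNU series gave 3 calls, 0 with a mean level of at least 50, 8 per total reads, 24 for 8 h and 12 h against 30 min and 1 h, and 0 to 17 when a library was left out. The crossed fits gave 0 calls each, but 454 for time without the nicotine pair and 530 for PNU alone against MLA. Of 128 member folds recomputed under another scaling, 127 stayed inside their counting interval and 0 changed sign; the exception was Ctnnb1 in MLA 12 h against 1 h, at -0.03 per total reads in place of -0.07. The planned count models were not run. Recovered reads gave the intervals and, divided by the size factors, the levels scaled over all libraries that the limma fits used. No paired analysis was possible because each condition has 1 library, so the groups share fewer than 2 replicate numbers; the crossed fit compares times within compound. Wnt10a rests on 27 to 104 reads per library, and depth limits it most.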
